A study of Homo sapiens with 4 samples.

Results

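Sites of GapR-GFP enrichment were located relative to the 1793 microRNA (miRNA) genes that RefSeq (GRCh38.p14, a release of the assembly that the hg38 peak lists use) places on chromosomes 1 to 22. They are among 56756 genes of all classes on these chromosomes. A miRNA gene was counted as having a peak when the summit of a peak lay in it or within 1 kb of it. By location, 1148 lie inside a protein-coding gene and 253 lie in a gene for a long noncoding RNA (lncRNA). Of the first of these classes, 109 lie in a gene of both kinds. The other 392 are called outside genes. They lie wholly inside neither kind, but may overlap one in part or lie in a gene of another class. Summits lay this close for 313 of 80318 peaks in the list of WT replicate 1 and for 241 of 42250 peaks in that of WT replicate 2.

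GapR is a protein of the bacterium Caulobacter that binds overtwisted, positively supercoiled DNA, and here it was fused to green fluorescent protein. CUT&RUN, in which a nuclease brought in by an antibody releases the DNA beside the bound protein, was carried out against the fluorescent tag in the HCT116 line of human colorectal carcinoma cells. The series had 2 WT libraries (genotype label wildtype) and 2 MT libraries. The genotype label of MT is TOP2A + TOP2B double knockout, whereas the series design speaks of a mutant GapR and names no knockout. Palbociclib, a CDK4/6 inhibitor, was given to all 4 cultures at 2 µM for 28 h to hold them in G1 per the labels, whereas the series design calls the cells asynchronous. The files settle neither conflict, so MT is called by its label. The WT lists cannot show whether TOP2A and TOP2B were lost in MT. Each list was called on 1 WT library with MT replicate 1 as its control, so a peak is a place with more WT than MT fragments, both lists share a control, and no test between groups can be made. MT replicate 2 entered neither list and was not analysed here. After filtering, WT replicate 1 had 21774260 fragments, WT replicate 2 had 27443146 and MT replicate 1 had 23356540. The labels do not say whether the replicates were separate cultures, so a spread between them may be technical.

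A miRNA starts as a hairpin in a longer primary transcript. The nuclease DROSHA with its partner DGCR8 cuts out the hairpin, XPO5 exports it, DICER1 trims it to a short duplex, and an Argonaute protein takes up 1 strand. Bases 2 to 8 of that strand, the seed, do most of the pairing with target mRNAs. Many hairpins lie in introns of protein-coding or lncRNA genes and are transcribed with their host, while others have promoters of their own, so the DNA around a hairpin can be anything from a promoter to the far interior of a long gene.

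The mature strands made at the sites described most closely are given here, 5′ to 3′, as RefSeq lists them, with the seed in capitals. The first are from genes with high enrichment, with miR-4505 added for its seed, and their hairpins are mostly rich in G and C.
miR-5787: gGGCUGGGgcgcggggaggu
miR-4505: aGGCUGGGcugggacgga
miR-611: gCGAGGACcccucggggucugac
miR-6090: gGGGAGCGaggggcggggc
miR-8072: gGCGGCGGggagguaggcag
miR-4707-5p: gCCCCGGCgcgggcggguucugg
miR-1199-5p: cCUGAGCCcgggccgcgcag
miR-3124-5p: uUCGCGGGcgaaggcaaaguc
miR-2110: uUGGGGAAacggccgcugagug
miR-375-3p: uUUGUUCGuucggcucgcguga
The miR-5787 and miR-4505 strands share the seed GGCUGGG, although their genes lie on chromosomes 3 and 14. Both genes had a summit in both lists.

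The second set is of miRNAs with known roles in epithelium, growth control or differentiation whose genes also had a summit in both lists.
let-7a-5p: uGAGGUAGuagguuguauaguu
miR-145-5p: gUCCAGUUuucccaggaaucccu
miR-141-3p: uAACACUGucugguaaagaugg
miR-203a-3p: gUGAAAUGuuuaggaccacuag
miR-155-5p: uUAAUGCUaaucgugauagggguu
miR-29a-3p: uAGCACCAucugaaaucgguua
miR-29b-3p: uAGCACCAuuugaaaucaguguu
The miR-29 strands share a seed and come from neighbouring hairpins on chromosome 7. The third set comes from near-identical gene copies, at which the placement of reads is uncertain.
miR-3180-5p: cUUCCAGAcgcuccgccccacgucg
miR-3180-3p: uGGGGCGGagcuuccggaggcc
miR-4435: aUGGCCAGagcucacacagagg
miR-6724-5p: cUGGGCCCgcggcgggcgugggg

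Summits at miRNA genes were less frequent than at genes in general, and more frequent than at positions of equal size, given below. A summit anywhere in a gene counted, so longer genes had more sequence in which to hold one. In WT replicate 1 a summit lay within 1 kb of 294 miRNA genes (16.4%, 95% Wilson interval 14.8 to 18.2%), where the share over all genes was 40.9%. In WT replicate 2 it was 223 genes (12.4%, 10.99 to 14.05%), against 33.6% of all genes. The mean of the lists was 14.4% ± 2.80 (SD, n = 2). Intervals cover counting error only, and neighbouring genes are not independent.

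Both lists had a summit at 179 miRNA genes (9.98%, interval 8.68 to 11.5%), against 32.5% of all genes, and 115 more had one only in WT replicate 1 and 44 only in WT replicate 2. Gene classes that are also short were spread widely around this share. Both lists had a summit at 63.6% of tRNA genes and 39.7% of snRNA genes, but at 4.17% of snoRNA genes, which like many miRNA genes mostly lie in introns. The shares were 64.4% for protein-coding genes, 26.7% for lncRNA genes and 2.91% for pseudogenes, classes that differ in length. Windows of the length of a hairpin, 80 bp, placed every 1 kb along the same chromosomes had summits of both lists within 1 kb at 2.16% of positions, and summits of WT replicate 1 at 5.32% and of WT replicate 2 at 2.81%. They were placed without regard to whether reads can be mapped there. Assembly gaps thus count as positions without a summit and lower these shares. The share at miRNA genes stood below that of all genes and above that of positions of equal size, and neither difference was tested.

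By location, summits of both lists were found at 105 miRNA genes inside a protein-coding gene (9.15%), at 23 inside an lncRNA gene (9.09%) and at 51 outside genes (13.0%, interval 10.0 to 16.7%). Positions every 1 kb gave 2.9%, 1.8% and 1.58% for the same 3 locations. In WT replicate 1 the counts were 187, 38 and 69 genes, with 7.99%, 3.65% and 3.32% of positions. In WT replicate 2 they were 128, 31 and 64 genes, with 3.76%, 2.22% and 2.09% of positions. The share outside genes was thus the highest of the 3 in each list, at 17.6% and 16.3%, while its interval overlapped those of the other locations. The 179 genes formed 170 loci when genes within 10 kb of each other were joined, and rested on 171 distinct peaks in WT replicate 1 and 170 in WT replicate 2. No locus had more than 2 such genes, and the 9 loci that had 2 include MIR203A with MIR203B, MIR29A with MIR29B1 and MIR423 with MIR3184. For 162 of the genes the peaks with the highest fold in each list overlapped each other. Chromosome 13 had none among its 40 miRNA genes. With independent genes that would allow a share of up to 7.5%, taken as 3 counts over the number of genes. Several of these genes share a locus, so the limit is higher. Chromosome 21 had the highest share, with 6 of 29 genes. Of these 6, 3 had a high MT level, and without genes of that kind chromosome 21 had 3 of 24 (12.5%), below chromosome 12 with 13 of 80 (16.25%) and chromosome 17 with 17 of 110 (15.5%).

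Enrichment at these 179 genes was moderate. The fold enrichment, which is the authors' value and sets the WT pileup (the number of fragments over the summit) over the local MT level, was taken at the highest summit within 1 kb of each gene. Its median for WT replicate 1 was 6.77, with quartiles of 4.88 and 9.27. For WT replicate 2 it was 5.01, with quartiles of 4.14 and 6.26. All peaks of these lists had medians of 4.18 and 4.38, and peaks that overlapped one of the other list had 5.94 and 4.65. Protein-coding genes with summits of both lists had medians of 7.66 and 5.95, and tRNA genes 8.42 and 6.26. The 3 locations differed little, with 6.95 and 5.10 inside protein-coding genes, 6.97 and 5.03 inside lncRNA genes and 6.31 and 4.83 outside genes. Genes with a summit in 1 list only had lower medians, at 3.60 for WT replicate 1 and 4.38 for WT replicate 2. Across the 179 genes the values of the lists had a Spearman rho of 0.65, given as a description since the lists share their control. The value was higher in WT replicate 1 at 138 genes and in WT replicate 2 at 41. The local MT level was the lowest of its list, where the fold is taken over the genome background, at 45.8% of the genes for WT replicate 1 (41.3% of all its peaks) and at 43.0% for WT replicate 2 (32.2% of all its peaks).

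**Figure D1:**
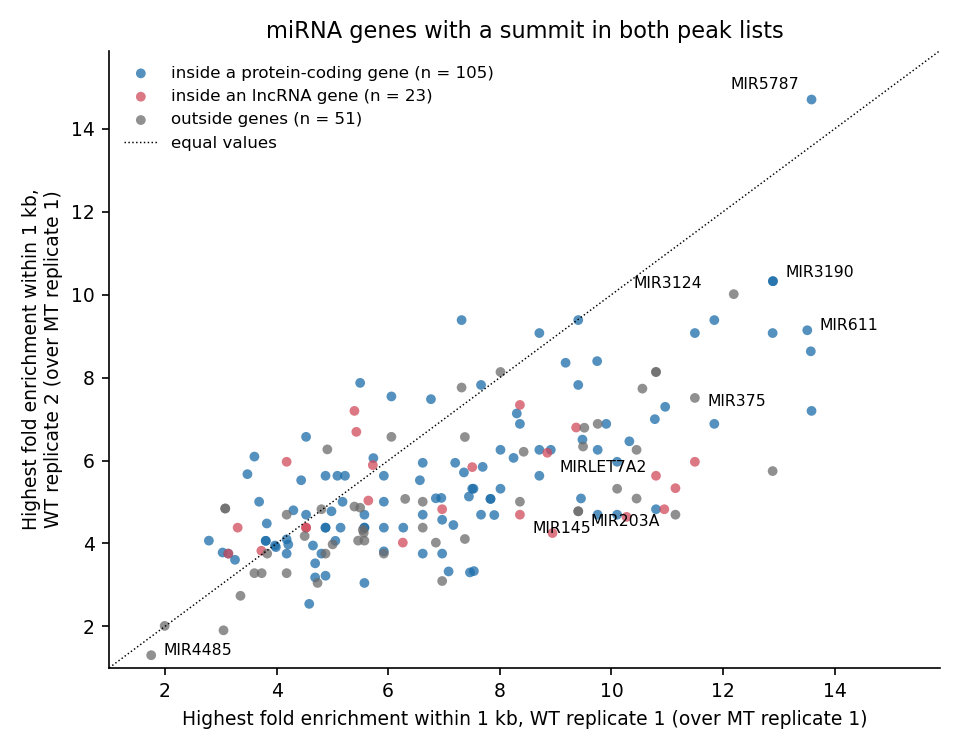
Each point is 1 of the 179 miRNA genes with a summit of both lists within 1 kb, placed by its highest fold enrichment in WT replicate 1 (horizontal axis) and in WT replicate 2 (vertical axis), both over MT replicate 1 and without unit. Colours give the location of the gene, and 138 of the points lie below the dotted line of equal values, with MIR5787 alone at the upper right and MIR4485 at the lower left.

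MIR5787 had the highest fold of WT replicate 2 and shared the highest of WT replicate 1 with MIR6790 in GTF2F1 (13.6 and 7.20 in the lists, named after its values were seen). MIR5787 lies in GNAI2, the gene of an inhibitory G protein alpha subunit (chromosome 3, 50227436 to 50227490, plus strand). WT replicate 1 had a fold of 13.6 there from a pileup of 38 fragments, and WT replicate 2 had 14.7 from 46. The hairpin lies 368 bp from the start of GNAI2 and the summits lay 312 and 363 bp from the hairpin. Of the 12 loci ranked highest by the worse of their ranks in the lists, 8 lay in protein-coding genes and 4 outside genes, and 10 lay within 1 kb of a listed start of a protein-coding or lncRNA gene. The local MT level was the lowest of its list at 7 of the 12 in WT replicate 1 and at 8 in WT replicate 2. MIR5787 was among these in both lists. At such loci the fold is taken over the genome background, so its rank follows the WT pileup.

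MIR3190 and MIR3191 overlap each other on opposite strands inside BBC3, which encodes the p53-induced apoptosis protein PUMA. They shared folds of 12.9 and 10.3 (pileups 37 and 32) over 5 kb from the nearest listed start, so these summits were not at a listed start. The same held for MIR6090 inside ETS1, the gene of a transcription factor, with folds of 12.9 and 9.08 and 7940 bp to the nearest listed start. No start of ETS1 itself is listed, so that start is of another gene. An ETS1 start could lie closer, which was not tested. The MIR6090 summits lay 118 and 171 bp from the hairpin.

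The other strong sites were at listed starts. MIR611 lies 38 bp from the start of TMEM258, which encodes a subunit of the oligosaccharyltransferase that adds glycans to proteins, and had folds of 13.5 and 9.14 (pileups 44 and 35). MIR8072 lies 4 bp from the start of SBNO1 (13.6 and 8.64). MIR4707 lies 61 bp from the start of HAUS4, the gene of a subunit of the spindle complex augmin (11.5 and 9.08). These 3 hairpins are next to the first base of their hosts.

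MIR1199 in MISP3 had folds of 11.8 and 9.39, and MIR2110 in CCDC186 had 11.0 and 7.30. Outside genes, MIR3124 had 12.2 and 10.0, MIR375 had 11.5 and 7.51, MIR548AL had 10.6 and 7.73, and the overlapping MIR2861 and MIR3960 shared 10.8 and 8.14. Each of these was within 1 kb of a listed start of a neighbouring gene or of its host. The fold was higher in WT replicate 1 at 11 of the 12 loci, MIR5787 being the exception. MIR375 is known from pancreatic islets and gut endocrine cells.

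For MIR611 and MIR4707 the summits of both lists lay inside the promoter window that RefSeq gives for the host, 250 bases before to 50 after the start, and these windows are shown because they hold the summits. The MIR611 hairpin overlaps the end of the TMEM258 window, and the MIR4707 hairpin lies just beyond that of HAUS4. At TMEM258 (GRCh38.p14, chr11:61792550-61792849, minus strand) the summits were at 61792776 and 61792747, which is 177 and 148 bases before the start. At HAUS4 (chr14:22957041-22957340, minus strand) they were at 22957288 and 22957271, 198 and 181 bases before it. Capitals mark the letters GGGCGG, searched on both strands, so that CCGCCC would count as well.
TMEM258: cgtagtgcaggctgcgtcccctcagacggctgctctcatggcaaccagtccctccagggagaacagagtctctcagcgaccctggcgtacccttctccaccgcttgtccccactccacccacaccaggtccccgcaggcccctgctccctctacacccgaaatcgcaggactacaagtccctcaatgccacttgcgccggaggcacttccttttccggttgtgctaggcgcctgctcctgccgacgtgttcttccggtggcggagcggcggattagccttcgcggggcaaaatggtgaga
HAUS4: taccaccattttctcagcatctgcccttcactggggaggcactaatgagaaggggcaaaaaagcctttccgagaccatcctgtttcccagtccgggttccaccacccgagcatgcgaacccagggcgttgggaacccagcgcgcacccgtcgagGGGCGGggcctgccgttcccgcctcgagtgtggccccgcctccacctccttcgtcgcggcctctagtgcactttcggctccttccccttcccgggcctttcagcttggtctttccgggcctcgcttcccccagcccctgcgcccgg
The TMEM258 window is 63.3% G+C with 21 CG pairs and no GGGCGG, and the HAUS4 window is 65.3% G+C with 23 CG pairs and 1 GGGCGG.

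Over all 122 listed starts within 1 kb of a miRNA gene with summits of both lists (104 genes), the median G+C content of the window was 67.5% and the median number of CG pairs was 27. GGGCGG on either strand was in 77.9% of these windows, and TATAAA on either strand was in 3.28%. At the 118 listed starts beside other miRNA genes the medians were 65% and 25, and the shares were 61.9% and 11.9%. Over all 33725 listed starts the medians were 58.7% and 14, GGGCGG was in 45.0% and TATAAA in 11.6%. So starts beside both kinds of miRNA gene had more CG-rich windows than listed starts in general. The medians were only slightly higher beside the genes with summits of both lists. A TATAAA match was less frequent beside those genes alone. A match is a run of letters, not a known binding site, and these shares were not tested.

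Summits were most frequent at miRNA genes close to the start of a gene. Start sites were listed for 26246 of 36921 protein-coding and lncRNA genes and for none on chromosome 8, which leaves 1703 miRNA genes for comparisons with starts. Of 187 miRNA genes within 1 kb of a listed start, 99 had a summit in WT replicate 1 and 99 in WT replicate 2, where 34.7% and 30.2% of positions equally near a start had one. Both lists had a summit at 83 genes (44.4%, interval 37.4 to 51.5%), against 26.7% of such positions. By location these were 53 of 112 genes inside protein-coding genes (47.3%, against 29.9% of positions), 8 of 35 inside lncRNA genes (22.9%, against 16%) and 22 of 40 outside genes (55%, against 27.8%). Of 54 miRNA genes within 1 kb of a boundary of a gene without a listed start, 12 had summits of both lists (22.2%, against 7.9% of such positions).

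Away from starts and boundaries the share was lower but stood above that of like positions. It was 74 of 1462 miRNA genes (5.06%, interval 4.05 to 6.31%), against 1.55% of positions. In WT replicate 1 it was 165 genes (11.3%, against 4.6% of positions) and in WT replicate 2 it was 100 (6.84%, against 2.13%). Inside protein-coding genes the share was 39 of 950 (4.11%, against 2.05%), inside lncRNA genes 13 of 198 (6.57%, against 1.19%) and outside genes 22 of 314 (7.01%, against 1.18%). The count inside lncRNA genes includes MIR3180-1, MIR3180-2 and MIR3180-3, copies at which the placement of reads is uncertain. The count outside genes includes MIR4485, which had a high MT level. The shares away from starts therefore exceeded those of positions in all 3 locations, and inside protein-coding genes by the least. Assembly gaps lower the shares of positions, by an amount that was not measured and may differ by location. Start sites that are not in the list, the miRNA genes' own among them, could lie near any of these genes, which was not tested.

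**Figure D2:**
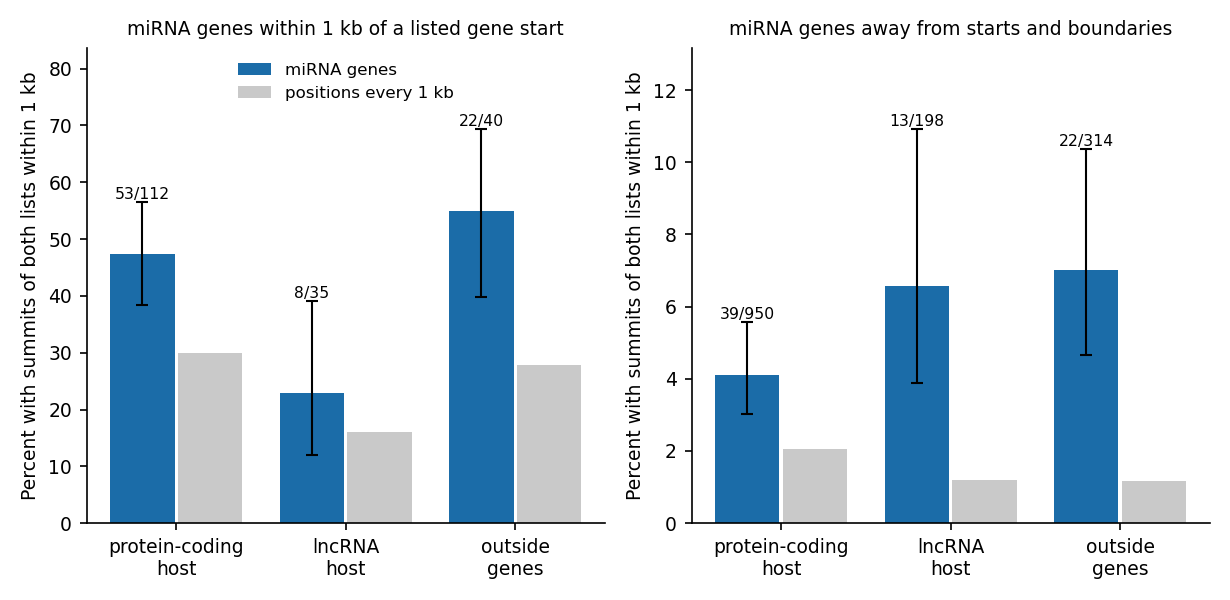
Bars give the percent of miRNA genes (blue, with 95% Wilson intervals and the counts above) and of positions every 1 kb (grey) that have summits of both lists within 1 kb, by location, for those within 1 kb of a listed gene start (left) and those away from starts and boundaries (right). The vertical scales of the panels differ, and each blue bar stands above its grey bar, with 44.4% of all miRNA genes near a listed start and 5.06% of those away from starts having summits of both lists.

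Enrichment was also higher near starts. The 83 genes near a listed start had median folds of 8.01 (WT replicate 1) and 5.85 (WT replicate 2), and the 74 away from starts had 5.41 and 4.38. The median length of the peak was 1580 and 867 bp near starts and 1007 and 592 bp away from them. The local MT level was the lowest of its list at 51.8% and 50.6% of the genes near starts and at 40.5% and 36.5% of those away from them. Its part in the difference was not tested.

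Inside protein-coding hosts the share with summits was highest at the 5′ end of the host and lower with distance from it. This covers the 950 of 1148 miRNA genes whose protein-coding host has a listed start, so none on chromosome 8. Summits of both lists were at 36 of 54 miRNA genes that lie in the first 1 kb of their host (66.7%), and at 8 of 63 (12.7%) that lie between 1 and 3 kb. The share was 7.38% of 149 genes between 3 and 10 kb, 4.93% of 223 between 10 and 30 kb, 4.45% of 247 between 30 and 100 kb and 2.80% of 214 farther in. WT replicate 2 alone followed the same order, from 68.5% in the first class to 3.74% in the last, with 20.6%, 10.7%, 7.62% and 5.67% between. WT replicate 1 alone did not keep it throughout, since 14.6% of the genes between 30 and 100 kb had a summit and 9.87% of those between 10 and 30 kb did. Orientation within the host went with little difference: 62 of 697 miRNA genes on the strand of their protein-coding host (8.90%) and 14 of 141 on the opposite strand (9.93%) had summits of both lists, with overlapping intervals.

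**Figure D3:**
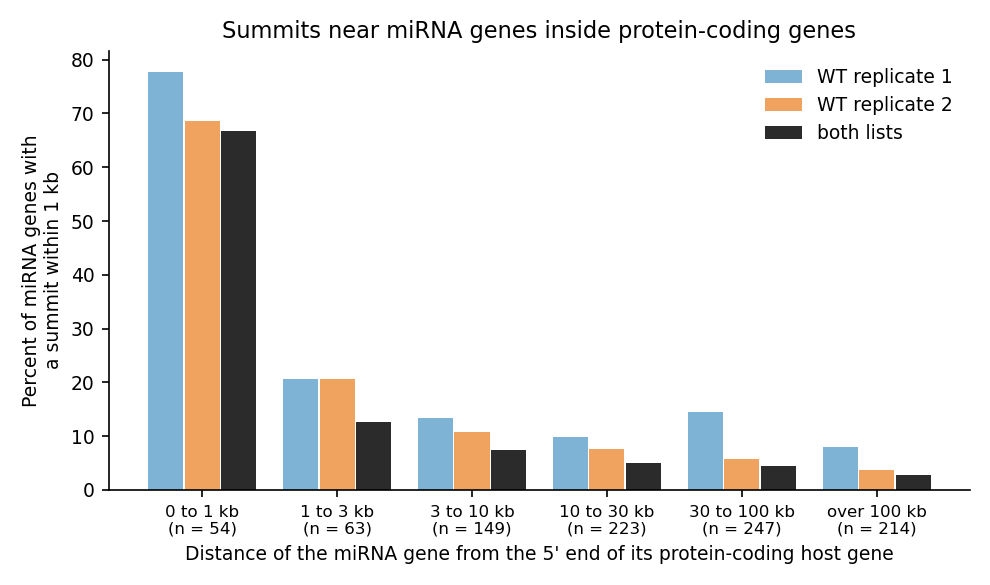
Bars give the percent of miRNA genes inside protein-coding genes with a summit within 1 kb in WT replicate 1, in WT replicate 2 and in both lists, by distance of the miRNA gene from the 5′ end of its host, with the number of genes under each class. Only the 950 genes whose host has a listed start are shown. The first 1 kb stands apart, at 66.7% in both lists, and the share in both lists is lower in each class farther in, down to 2.80%.

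Some members with summits lay away from listed starts, and part of these far from them. Of the 74 away from starts, 42 were over 10 kb from the nearest listed start and 16 over 50 kb. Besides the BBC3 and ETS1 sites, MIR5093 in GSE1, at 1487 bp from a listed start, had folds of 10.3 and 6.46 with the summit of WT replicate 2 inside the hairpin. MIR615 in HOXC5, within a homeobox cluster, had 8.25 and 6.06 at 17062 bp from a listed start. MIR4757 lay 88002 bp from a listed start and had 10.1 and 4.69. Outside genes, MIR193A had 7.32 and 7.76, and MIR4645, whose hairpin held the summit of WT replicate 1, had 5.50 and 4.86. These 5 were chosen after their values were seen.

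Few summits fell on the hairpins themselves. The highest summit lay inside the hairpin at 5 of the 179 genes in WT replicate 1 and at 8 in WT replicate 2, and within 100 bp of it at 28 in each. The median distance was 394 and 447 bp. Where a strand was known, at 149 genes, the summit lay on the 5′ side of the hairpin at 92 and on its 3′ side at 53 in WT replicate 1, and at 98 and 43 in WT replicate 2. The 5′ side was also the more frequent among genes near listed starts, at 51 of 75 genes in each list. It was again the more frequent away from starts, at 38 of 64 genes in WT replicate 1 and 42 of 64 in WT replicate 2. Genes that share a peak are counted separately here.

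**Figure D4:**
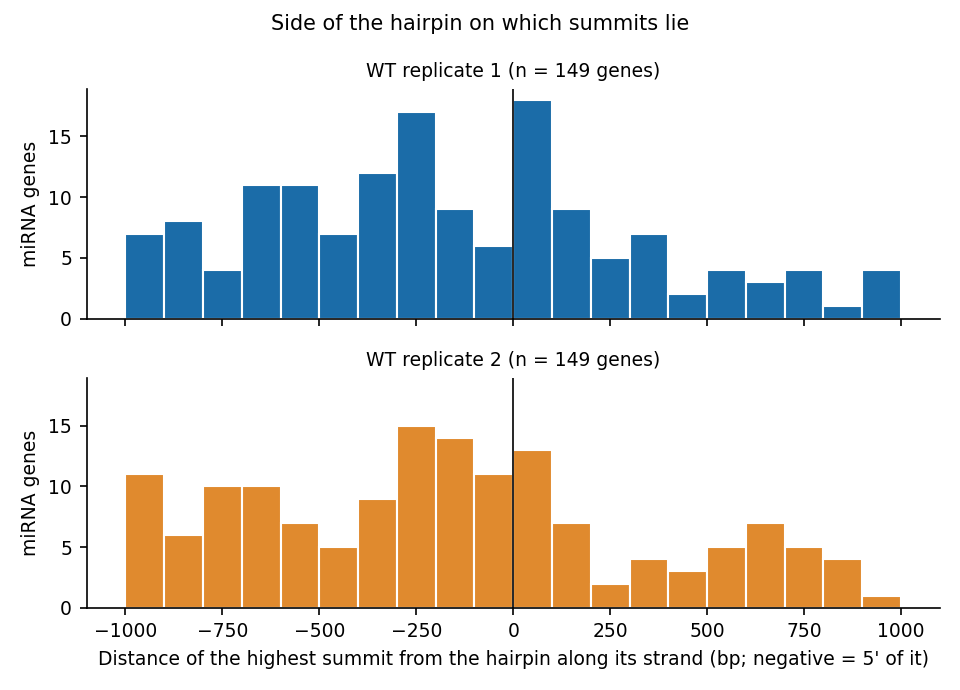
Histograms in steps of 100 bp give the number of miRNA genes by the distance of their highest summit from the hairpin, along the hairpin's strand and in bp, for the 149 genes with a known strand and summits of both lists. Negative distances are on the 5′ side, where 92 genes lie in WT replicate 1 (upper panel) and 98 in WT replicate 2 (lower panel).

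The 1 kb limit divided a continuous spread of distances. In WT replicate 1 the nearest summit lay 989 bp from MIR18A (fold 3.48) and 986 bp from MIR4512 (3.03), just inside, and 1013 bp from both MIR4653 (5.23) and MIR153-1 (6.31), just outside. In WT replicate 2 it lay 999 bp from MIR6737 (5.32) and 994 bp from MIR4724 (6.57), inside, and 1002 bp from MIR4642 (4.38) and 1003 bp from MIR196B (7.82), outside.

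Base composition went along with the summits. Hairpins of genes with summits of both lists had a median G+C content of 62.7% (149 with a sequence), against 51.4% for the 1175 without a summit in either list, 50.9% for those with one only in WT replicate 1 and 54.0% for those with one only in WT replicate 2. Summits of both lists were at 5.67% of 247 genes with hairpins under 40% G+C, at 5.53% and 6.53% in the next classes, at 13.2% of 273 between 60 and 70% and at 37.9% of 132 at 70% or more. Many of the latter are near starts. Away from starts the shares were 3.95% of 228 genes under 40% and 17.4% of 69 at 70% or more, so the step at high G+C was seen there as well. The part of base composition in these counts was not tested.

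**Figure D5:**
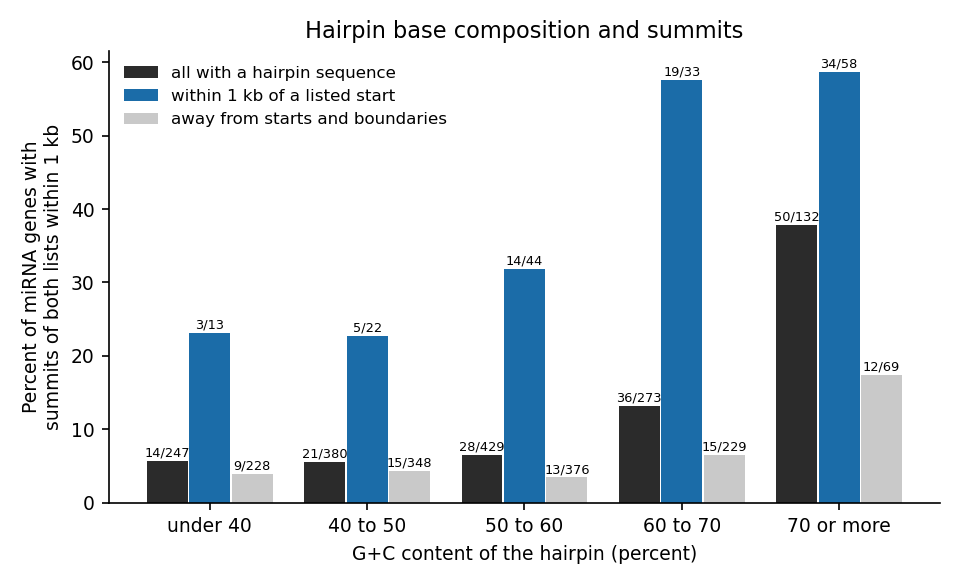
Bars give the percent of miRNA genes with summits of both lists within 1 kb, by the G+C content of the hairpin in percent, for all genes with a hairpin sequence, for those within 1 kb of a listed start and for those away from starts and boundaries, with counts above the bars. The share over all genes is between 5.53% and 6.53% below 60% G+C and 37.9% at 70% or more.

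The let-7 family, which restrains growth genes such as RAS and MYC and is itself blocked by LIN28 proteins, had a summit at 4 of 11 genes in WT replicate 1, at 2 in WT replicate 2 and at 1 in both. That gene was MIRLET7A2 in MIR100HG, with folds of 8.85 and 6.19 from 27 fragments in each list, at 40906 bp from the nearest listed start. The neighbours MIRLET7A1 and MIRLET7F1 shared a peak of 4.18 in WT replicate 1, and MIRLET7D beside them had 5.27 there, while MIRLET7I had 6.88 in WT replicate 2 only. The share of the family in both lists, 1 of 11, was near that of all miRNA genes.

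The miR-17 cluster, a growth-promoting group induced by MYC, had no gene with summits of both lists among the 9 genes of the cluster and its MIR106B paralogs, which lie at 2 loci. MIR18A, MIR19A, MIR20A, MIR19B1 and MIR92A1 lay near 1 peak of WT replicate 1, with a fold of 3.48 and 9 fragments. It is thus a single weak site and not 5.

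Of 11 miRNA genes known to be induced by p53, which HCT116 cells carry in working form, 2 had summits of both lists (18.2%, where 9.98% of all miRNA genes did). MIR145, a smooth muscle miRNA that is low in colon tumours, had folds of 8.36 and 4.69 inside the lncRNA gene CARMN, with summits 31 and 60 bp from the hairpin. MIR1204 lies in PVT1, the noncoding neighbour of MYC on chromosome 8, and had 9.37 and 6.80. MIR34A, MIR34B and MIR34C, the best known of the group, had no summit in either list. Nor had MIR192, MIR194-1, MIR194-2 and MIR215, which are typical of gut, or MIR107 and MIR143.

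Epithelial miRNAs had summits of both lists at 3 of 8 genes, which lie at 2 of 4 loci, where the share over all miRNA genes was 9.98%. MIR141, which with its relatives holds down the mesenchymal factors ZEB1 and ZEB2, had 5.40 and 7.20, and its neighbour MIR200C had a summit in WT replicate 2 only (3.61). MIR203A and MIR203B overlap on opposite strands and shared 9.41 and 4.78. MIR200A, MIR200B, MIR429 and MIR205 had no summit in either list.

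Of 64 miRNA genes linked to colorectal cancer or growth signals, 19 had a summit in WT replicate 1, 14 in WT replicate 2 and 10 in both (29.7%, 21.9% and 15.6%). Over all miRNA genes the shares were 16.4%, 12.4% and 9.98%, and the difference was not tested. Their folds were modest, from 3.30 to 7.37 in WT replicate 1 and from 3.18 to 6.69 in WT replicate 2, and MIR423 (5.57 and 4.38) was within 1 kb of a listed start. MIR10A and MIR320A were within 1 kb of a boundary of a gene without a listed start, and MIR320A and MIR30B lie on chromosome 8, which has no listed starts. MIR301B had the highest fold of WT replicate 1, at 7.37 beside 4.11 in the other list, and MIR22 that of WT replicate 2, at 6.69 beside 5.43. MIR10A, in the HOXB cluster, had 5.18 and 5.01, and MIR155, an activator of immune cells, had 3.73 and 3.82 with summits 43 and 38 bp from the hairpin. MIR29A had 3.60 and 3.28, and MIR29B1 had 3.73 and 3.28. MIR30B, MIR320A and MIR365A were the remaining 3.

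Several members much studied in this cancer had a summit in 1 list. MIR21, the tumour-promoting miRNA in VMP1, had 3.07 in WT replicate 2 only, from 14 fragments at 948 bp, and MIR31 had 3.16 there. MIR132 and MIR212 shared 8.01 in WT replicate 1 only, and MIR484 had 7.61 in WT replicate 2 only. MIR196B had 9.41 in WT replicate 1, and its summit of 7.82 in WT replicate 2 fell 3 bp beyond the limit. A summit in a single list thus ranged from weak peaks to peaks as strong as those in both.

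Genes typical of other tissues were counted in the same way. Of 24 typical of liver, muscle, neurons or blood, 3 had a summit in WT replicate 1 (12.5%). In both lists it was 1 (4.17%), the neuronal MIR124-3 (4.18 and 4.69). Over all miRNA genes the shares were 16.4% and 9.98%, and no difference from them was tested. The imprinted cluster at 14q32 and the primate cluster on chromosome 19 each had no summit in either list at 50 genes, and the stem cell miR-302 cluster had none at 5. The genes of a cluster lie side by side, at 3, 2 and 1 loci here, so these counts stand for few independent sites. MIR770 in MEG3, of the same imprinted region but not in the list, had a summit in WT replicate 1 only (fold 4.18). Of 15 mirtrons, hairpins that are a whole short intron and bypass DROSHA, MIR1225 in PKD1 was the one with summits of both lists (6.62 and 4.69). That is a share of 6.67%, beside the 9.98% of all miRNA genes.

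Among miRNA genes inside lncRNA genes, those ranked highest were MIR1204, MIRLET7A2, MIR5696 (8.36 and 7.34) and MIR1915 in MIR1915HG (11.5 and 5.97). Copies of MIR3180 on chromosome 16 added 3 more, with 7.51 and 5.84 at MIR3180-1, 10.3 and 4.64 at MIR3180-2 and 10.9 and 4.83 at MIR3180-3. Without the genes whose mature sequence another gene also gives, the 23 in this class became 14. The lists ranked some genes far apart. MIR10400 had 3.60 in WT replicate 1 and 6.10 in WT replicate 2, MIR4724 had 4.53 and 6.57, MIR616 had 3.48 and 5.67, and MIR1539 had 5.50 and 7.87. All 4 were higher in WT replicate 2, against the order of most genes. At MIR10400 and MIR616 the values come from peaks of the lists that do not overlap each other. The MIR616 summits lay 252 and 904 bp from the hairpin, on opposite sides of it.

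A few sites had many fragments in MT as well. At 7 genes the local MT level, computed back from pileup and fold, was over 10 fragments in a list, and 4 of them had summits of both lists. MIR4485 had pileups of 250 and 234 over MT levels of 142 and 179, and so folds of 1.75 and 1.30, the lowest of all 179 genes in each list. MIR6724-2 had 3.05 and 1.91, MIR6724-4 had 1.99 and 2.01, and MIR10396A had 3.35 and 2.74. All 3 lie on the short arm of chromosome 21, where the ribosomal RNA genes are repeated. MIR12136 had a pileup of 3879 over an MT level of 2633 in WT replicate 1 only. The highest MT level at the other genes with summits of both lists was 6.46. Without these 7 genes, an alternative added after the values were seen, 175 genes had summits of both lists and the median folds were 6.85 and 5.03.

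The genes of the proteins that make and use miRNAs nearly all had summits. Of 27, a summit lay in the gene or within 1 kb at 27 in WT replicate 1, at 25 in WT replicate 2 and at 25 in both, while 64.4% of all protein-coding genes had summits of both lists. Gene length differs and the difference was not tested. For the first cut, DROSHA had highest folds of 7.32 and 5.01 and DGCR8 had 7.66 and 5.01. The exporter gene XPO5 had 6.62 and 5.32. For the second cut, DICER1 had 10.8 and 5.08, and TARBP2, whose protein holds the hairpin for DICER1, had 15.3 and 7.07. Among the Argonaute genes AGO2, whose protein can cleave targets, had 11.3 and 7.51, the neighbours AGO1 and AGO3 shared 9.06 and 4.86, and AGO4 had 4.88 in WT replicate 1 only. LIN28A, the let-7 inhibitor, also had a summit only in WT replicate 1 (6.62), and LIN28B had 6.10 and 3.81. When peaks with a raised MT level were left out, 15 of the 27 had summits of both lists.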

How the data were processed

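CUT&RUN libraries of HCT116 cells were grouped by their titles into WT and MT. The authors processed the reads with MACS2 2.1.2, Bowtie2 2.3.4 and ChIPseeker 1.28.3 on hg38, per the submitters' processing notes. Peaks were called separately on each WT library against MT replicate 1 at a q-value limit of 0.05, per the file headers. The deposited pileup is signal, the coverage by WT fragments at the summit. The authors' fold enrichment, also deposited, divides that pileup plus 1 by the local MT level plus 1. The q-value and the p-value of a peak are deposited as −log10 values. Per the file headers, MACS2 would scale down whichever library of a pair was larger, but pileups were whole numbers. The lowest MT level computed back from pileup and fold was 1.87 and 2.20, and the genome background of the WT libraries without scaling is 1.87 and 2.20, whereas scaling would give 1.87 for both, so pileups were taken as unscaled.

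Genes, starts and sequences came from RefSeq tables of GRCh38.p14, with a hairpin sequence for 1461 of 1793 miRNA genes. Counts were made with pandas 2.3.3 and numpy 2.4.6, and Wilson intervals with statsmodels 0.14.6. On simulated data the procedure recovered 200 of 200 planted genes, with 0 false among 1800. No test was made, since the lists compare single libraries. The genes named were the 12 highest loci by the worse rank of fold in both lists, the 4 highest per location, the loci with most members, the 4 with the largest difference in rank and members of 10 gene lists with a summit. The miRNA genes and the lists were chosen with earlier results of these data known.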

Additional observations from a re-analysis of the deposited data

How the results depend on the processing

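The 179 miRNA genes with summits of both lists became 82 with a limit of 500 bp and 292 with 2 kb, 116 with a −log10 q of at least 5, 117 when peaks had to overlap over 50% of both, 70 when peaks had to be at the lowest MT level and 91 without genes within 1 kb of a protein-coding gene boundary. Over all genes the share moved in the same direction, to 30.1%, 34.8%, 25.3% and 15.2% under the first 3 kinds of change and the MT limit, against 4.57%, 16.3%, 6.47% and 3.9% of miRNA genes. The 105 inside protein-coding genes became 44, 176, 67, 43 (lowest MT level) and 51 (boundaries left out). The 23 inside lncRNA genes became 15 and 43 by distance, 10 by overlap, 5 at the lowest MT level and 14 without shared mature sequences. The 51 outside genes became 23 with 500 bp, 32 with the stricter q, 31 by overlap, 22 at the lowest MT level and 22 without boundary genes. The median fold of 6.77 became 8.28 with the stricter q, and the 25 pathway genes became 15 at the lowest MT level. With each WT list alone, counts ranged from 223 to 294 in all, from 128 to 187, from 31 to 38 and from 64 to 69 by location and from 25 to 27 for the pathway, and the medians were 5.08 and 4.84. The order of the locations turned at 500 bp, with 5.93% inside lncRNA genes and 5.87% outside genes. Of 38 named genes with summits of both lists, 16 were left at 500 bp, 27 with the stricter q, 23 by overlap and 16 at the lowest MT level. The last dropped MIR3190, MIR611, MIR8072, MIR548AL and MIR2110 of the 12 highest loci. The limit of 500 bp dropped MIR3190, MIR1199, MIR8072, MIR2861, MIR375 and MIR548AL of them, and the overlap rule dropped MIR1199. The cause of these changes was not tested beyond what each alternative removes or adds. No paired analysis was possible because each list sets a single WT library against the same MT library and no test was made. Depth limits weak sites, since a peak of WT replicate 1 could rest on 7 fragments.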
